A study of Mus musculus with 12 samples.

Results

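The 8 genes described here handle the amino acid arginine: the arginases Arg1 and Arg2, the inducible nitric oxide synthase Nos2, the carriers Slc7a1 and Slc7a2, the recycling enzymes Ass1 and Asl, and ornithine decarboxylase Odc1. They were chosen by symbol from a gene expression matrix and were 8 of its 54104 entries with an Ensembl gene identifier. Each symbol matched 1 identifier.

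Arginine enters cells through cationic amino acid carriers and is then split between competing enzymes. Arginase cuts it to ornithine and urea, and ornithine decarboxylase turns ornithine into putrescine, the first polyamine. Nitric oxide synthase instead oxidises arginine to nitric oxide and citrulline, which Ass1 and Asl can build back into arginine. Myeloid-derived suppressor cells (MDSCs), immature cells of the myeloid lineage found in large numbers in hosts with tumors, are known for using arginase and inducible nitric oxide synthase to restrain T cells.

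The study compared monocytic and polymorphonuclear MDSCs from the spleen and tumor of mice by bulk RNA sequencing of total RNA. The 12 libraries were named Ly6C or Ly6G by label and spleen or tumor by tissue, 3 for each combination. Ly6G and Ly6C are surface proteins commonly used to separate polymorphonuclear from monocytic cells. The sources used here give no strain, age, tumor model, sorting gate or treatment for these groups, nor whether libraries of a group came from separate mice. The p-values therefore measure only the spread between these libraries, which may be technical.

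Levels are FPKM (fragments counted on a gene, corrected for its length and for the size of the library), which allow genes of different length to be set side by side, and are given as mean ± SD with n = 3. Differences are on the log2(FPKM + 1) scale with the standard error of a limma model over all genes. This scale understates changes of genes below a few FPKM. The threshold was an adjusted p of 0.05 (Benjamini-Hochberg over the 13610 genes tested, which had 1 FPKM or more in 3 or more libraries). Of the 8 genes, 7 were tested and Slc7a2, which reached 1 FPKM in 0 libraries, was not.

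Marker genes of several cell types differed in level between the tissues. Libraries summed to 331681 to 449309 FPKM and had 10379 to 12337 genes at 1 FPKM or more. All 20 pan-leukocyte genes were lower in tumor in both labels, and their summed level fell from 4694 to 5514 FPKM in Ly6C spleen to 197 to 400.4 in Ly6C tumor, and from 5737 to 5780 in Ly6G spleen to 494 to 865 in Ly6G tumor. The 12 neutrophil genes were also lower in tumor in both labels (12 of 12 each). Keratin genes summed to at most 1.23 FPKM in spleen and to 446 to 1020 in tumor, nearly all of it Krt8 and Krt18, while the epithelial gene Epcam was listed at 0 in all Ly6C tumor libraries. Fibroblast genes, with 5 of 8 tested higher in Ly6C tumor and 7 of 8 in Ly6G tumor, summed to at most 6.44 FPKM in spleen and to 137 to 364.8 in tumor. Most of that tumor sum was the collagen Col3a1 (171 to 327 FPKM in Ly6C and 124 to 248 in Ly6G). Dcn, Lum, Pdgfra and Pdgfrb averaged 7.15, 5.48, 7.44 and 4.42 FPKM in Ly6C tumor, with means of at most 0.0584 in spleen. In Ly6G tumor they averaged 6.73, 5.36, 6.98 and 4.65. Col1a1 averaged 3.43 ± 2.36 FPKM in Ly6C tumor and 11.1 ± 14.6 in Ly6G tumor, from 0.824 and 0.291 in spleen. Col1a2 averaged 1.10 ± 0.671 and 2.95 ± 3.87 in tumor, from at most 0.0102 in spleen means. Fap averaged 0.0888 and 0.203 FPKM in Ly6C and Ly6G tumor. Thy1 averaged 1.25 and 4.65 in Ly6C and Ly6G spleen, and 1.26 and 2.71 in tumor. Between the labels in spleen, all 8 erythroid, 7 of 7 B cell and 5 of 5 tested T cell genes were lower in Ly6C (medians -1.71, -1.50 and -1.21), and 4 of 9 monocyte genes were higher. The label genes separated the labels only in part. Ly6g was lower in Ly6C than in Ly6G libraries in spleen (166 ± 40.05 against 651 ± 63.6 FPKM) and in tumor (12.97 ± 1.03 against 39.1 ± 13.02). Ly6c2 was 247 ± 24.8 and 214 ± 38.6 in spleen and 7.05 ± 0.976 and 6.69 ± 1.27 in tumor for Ly6C and Ly6G, and did not pass between the labels (adjusted p = 0.38 and 0.818). The part that these marker differences play in the results below was not tested, and in bulk RNA fewer cells of a type and less RNA per cell cannot be told apart.

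Between tumor and spleen, Arg1, Nos2, Slc7a1 and Odc1 were higher in tumor in both labels. In Ly6C, 4 of the 7 tested genes were higher and 0 lower in limma (0 lower also at an unadjusted p under 0.05), where 46.2% of all genes tested were higher and 30.5% lower, together 76.7%. In Ly6G, 4 of 7 were higher and 0 lower (Arg2 lower at an unadjusted p under 0.05), against 51.5% higher and 24.7% lower of all genes, together 76.2%. Read against these shares, 4 of 7 is near the background, so the count itself sets the genes apart in neither label. The median difference of the 7 genes was 1.03 in Ly6C and 1.58 in Ly6G, beside 0.27 and 0.43 over all genes tested. All of these rises kept their call under the 26 alternative settings tried, among them 5 other scalings of the libraries.

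**Figure D1:**
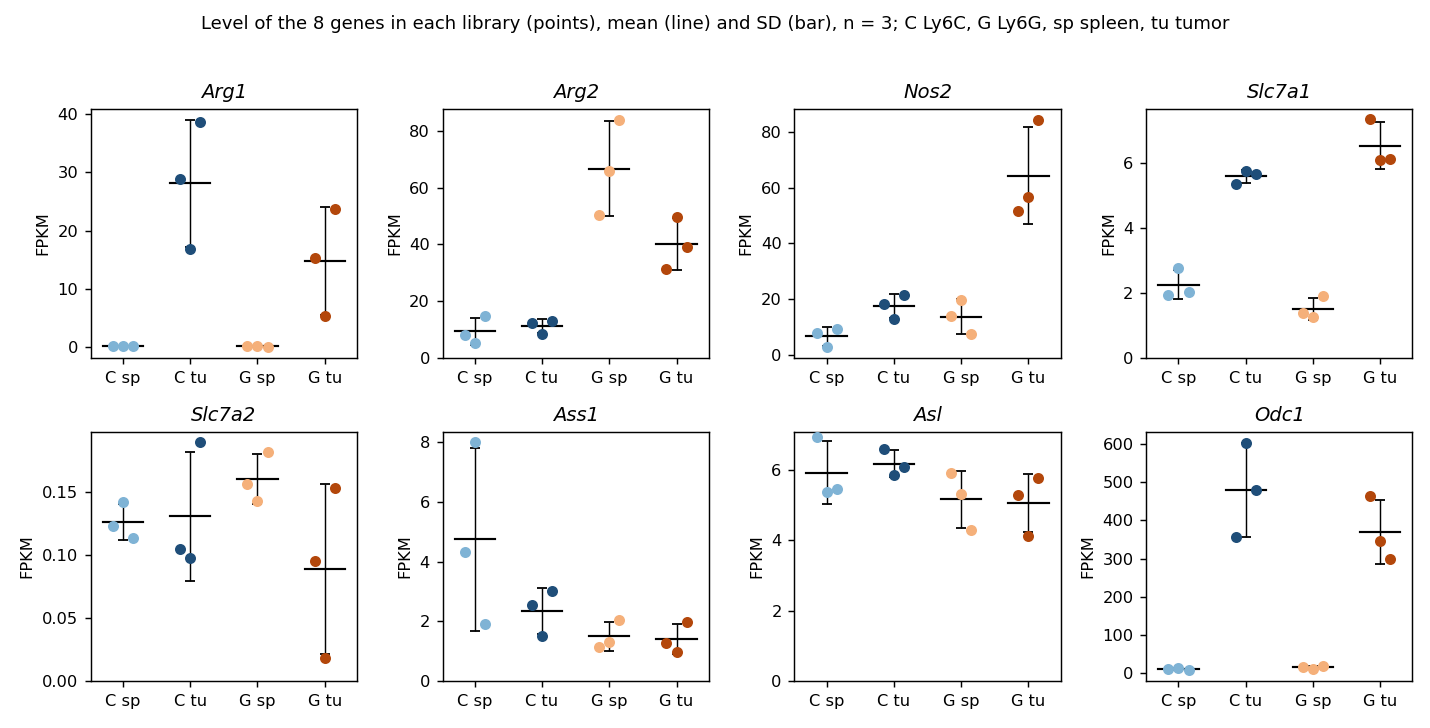
Level in FPKM of each of the 8 genes in the 12 libraries. Points are libraries, lines means and bars SD of 3 libraries, with C for Ly6C, G for Ly6G, sp for spleen and tu for tumor. Odc1 and Slc7a1 are high in both tumor groups, Arg2 is highest in Ly6G spleen (66.6 ± 16.7) and Nos2 in Ly6G tumor (64.3 ± 17.5).

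Slc7a1 and Odc1, the entry of arginine and the exit of ornithine to polyamines, were both higher in tumor, and the sequence before their starts was available, as was that of Ass1, which did not pass between tissues. The bases are those of the RefSeq promoter table (GRCm38.p6) that lie outside any exon of GENCODE M21, written 5′ to 3′ along the gene. Capitals mark the GC box GGGCGG or its reverse complement CCGCCC.
Odc1, chr12:17544623-17544793, plus strand: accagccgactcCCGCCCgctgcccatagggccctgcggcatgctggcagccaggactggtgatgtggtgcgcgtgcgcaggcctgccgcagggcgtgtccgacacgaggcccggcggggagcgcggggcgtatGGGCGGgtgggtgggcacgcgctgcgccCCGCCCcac
Slc7a1, chr5:148399905-148400154, minus strand: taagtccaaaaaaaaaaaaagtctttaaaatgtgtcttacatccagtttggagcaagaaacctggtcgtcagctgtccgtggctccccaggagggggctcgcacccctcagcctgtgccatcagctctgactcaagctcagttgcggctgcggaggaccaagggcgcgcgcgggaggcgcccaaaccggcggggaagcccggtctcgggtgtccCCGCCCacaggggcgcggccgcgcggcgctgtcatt
Ass1, chr2:31470020-31470206, plus strand: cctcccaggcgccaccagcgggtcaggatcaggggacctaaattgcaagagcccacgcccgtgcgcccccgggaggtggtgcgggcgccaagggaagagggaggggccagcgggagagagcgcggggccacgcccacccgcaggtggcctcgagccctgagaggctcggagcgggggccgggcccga
The windows run from 250 bases before the RefSeq start and stop at the first exon met. For Odc1 and Ass1 the bases nearest the RefSeq start were therefore not searched, and the counts do not cover them. The 171 bases of Odc1 held 3 GC boxes, the 250 bases of Slc7a1 held 1 and the 187 bases of Ass1 held 0. A GC box is found in 19.6% of the 32851 RefSeq promoters over 171 bases, in 32.7% over 250 bases and in 22.2% over 187 bases. The E-box CACGTG, the core ACGTG (which every E-box contains), CCAAT and TATAAA, searched on both strands, had 0 matches in any of the 3 windows. They occur in 3.41%, 10.6%, 23.4% and 8.09% of promoters over 171 bases, in 6.02%, 16.6%, 33.9% and 12.4% over 250 bases and in 3.94%, 11.9%, 26.2% and 8.62% over 187 bases.

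Slc7a1 encodes the main carrier of arginine at the cell surface (ENSMUSG00000041313, protein-coding, chromosome 5, 148327410 to 148399904, minus strand, GRCm38). Its level in Ly6C was 1.95, 2.76 and 2.05 FPKM in spleen and 5.38, 5.75 and 5.68 in tumor. In Ly6G it was 1.40, 1.26 and 1.90 in spleen and 7.37, 6.11 and 6.13 in tumor. Every tumor library lay above every spleen library, and the tumor values were close to each other in Ly6C. Groups that did not overlap were seen for 78.5% of all genes tested in Ly6C and 79.1% in Ly6G. The tumor mean was 2.49 times the spleen mean in Ly6C and 4.29 times in Ly6G. The log2 differences were 1.03 ± 0.13 (adjusted p = 1.86e-05) and 1.58 ± 0.13 (adjusted p = 5.13e-07). The tissue difference was smaller in Ly6C than in Ly6G by 0.55 (log2, 95% interval -0.96 to -0.14), which did not pass in limma over all genes (adjusted p = 0.054).

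Slc7a2, an inducible carrier of the same family (ENSMUSG00000031596, chromosome 8, 40862396 to 40922308, plus strand), stayed between 0.0183 and 0.189 FPKM in all 12 libraries. Its group means were 0.126 ± 0.0141 in Ly6C spleen, 0.131 ± 0.051 in Ly6C tumor, 0.16 ± 0.0198 in Ly6G spleen and 0.0887 ± 0.0674 in Ly6G tumor. It passed in none of the 5 comparisons of a limma fit without the low-value filter, where its unadjusted p was lowest between Ly6G tumor and spleen (0.0649). Slc7a1 was thus the only member of the pair above 1 FPKM in these libraries.

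Arg1, the cytosolic arginase of the urea cycle and of alternatively activated myeloid cells, was close to 0 in spleen and was clearly detected in tumor (ENSMUSG00000019987, chromosome 10, 24915221 to 24927484, minus strand). Its spleen levels were 0.0858, 0.126 and 0.139 FPKM in Ly6C and 0.144, 0.048 and 0 in Ly6G. Its tumor levels were 28.8, 16.9 and 38.6 in Ly6C and 15.2, 5.26 and 23.8 in Ly6G. No tumor library of either label overlapped the spleen libraries, while the tumor libraries of 1 label differed among themselves by more than 2-fold. Tissues without overlap were seen for 78.5% of all genes tested in Ly6C and 79.1% in Ly6G. The log2 difference was 4.63 ± 0.41 in Ly6C (adjusted p = 7.88e-07) and 3.68 ± 0.41 in Ly6G (adjusted p = 6.18e-06). With a pseudocount of 0.1 in place of 1 these were 6.95 and 6.35, and with 5 they were 2.64 and 1.84, so the size of the Arg1 change depends on the scale. If the smallest step of the FPKM values is 1 fragment, which the files do not state, 1 fragment of Arg1 is 0.0214 to 0.0269 FPKM, and the spleen values correspond to a handful of fragments.

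Between the labels in tumor, Arg1 was 28.1 ± 10.9 FPKM in Ly6C and 14.8 ± 9.27 in Ly6G. The values overlapped, and the log2 difference of 1.02 (95% interval 0.12 to 1.92) did not pass over all genes (adjusted p = 0.112, 0.00111 to 0.318 over its alternatives). In both labels Arg1 was lowest in tumor replicate 2 and highest in tumor replicate 3. The macrophage gene sum followed the same order, with 186, 127 and 239 FPKM in Ly6C tumor and 173, 102 and 311 in Ly6G tumor. So did the monocyte sum, with 137, 87.8 and 160.2 in Ly6C and 107, 54.4 and 182 in Ly6G, and the fibroblast sum, which is mostly Col3a1, with 243, 193 and 364.8 in Ly6C and 157, 137 and 329 in Ly6G. None of the other marker lists followed it in both labels. How common this order of replicates is over all genes tested was not counted. Keratin sums were 861, 1020 and 753 in Ly6C and 754, 697 and 446 in Ly6G. Pan-leukocyte sums were 391, 197 and 400 in Ly6C and 494, 794 and 865 in Ly6G. The 12 macrophage genes included 0 higher and 5 lower genes in Ly6C tumor and 0 higher and 8 lower in Ly6G tumor (limma), summed to 164 to 351 FPKM in Ly6C spleen and 297 to 687 in Ly6G spleen, and none was listed at 0 throughout a group. The 9 monocyte genes were 8 lower in Ly6C tumor, and 1 higher and 6 lower in Ly6G tumor, and summed to 528 to 1223 FPKM in Ly6C spleen and 386 to 441 in Ly6G spleen. Their part in the Arg1 values was not tested.

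Arg2, the mitochondrial arginase, differed between the labels in both tissues (ENSMUSG00000021125, chromosome 12, 79130777 to 79156301, plus strand). Its level in Ly6C was 8.09, 5.36 and 14.7 FPKM in spleen and 12.2, 8.33 and 12.9 in tumor. In Ly6G it was 50.3, 65.8 and 83.7 in spleen and 31.5, 49.7 and 39.1 in tumor. Every Ly6G library lay above every Ly6C library. The labels did not overlap for 42.1% of all genes tested in spleen and 42.3% in tumor. The log2 difference of Ly6C from Ly6G was -2.77 ± 0.31 in spleen (adjusted p = 0.000171) and -1.76 ± 0.31 in tumor (adjusted p = 0.00582). Neutrophil genes were lower in Ly6C alongside it, 5 of 12 in spleen with 1 higher (median -0.94) and 7 of 12 in tumor (median -1.65). Their sum was 65090 to 101910 FPKM in Ly6C spleen against 126213 to 160278 in Ly6G spleen, and 1381 to 2617 against 4273 to 8507 in tumor, with 0 of the 12 listed at 0 throughout a group. Their part in the Arg2 difference was not tested. The spleen call of Arg2 held under all 26 alternatives, at -3.12 to -2.34. The tumor call was lost without both libraries of highest mitochondrial share, Ly6C tumor replicate 3 and Ly6G tumor replicate 3 (-1.87, adjusted p = 0.0574), and moved to -0.71 (adjusted p = 0.0476) when libraries were rescaled to the pan-leukocyte genes.

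Between tissues Arg2 did not pass in Ly6C (0.31 ± 0.31, 95% interval -0.37 to 0.98, adjusted p = 0.381). In Ly6G the difference was -0.71 ± 0.31 (95% interval -1.39 to -0.03, adjusted p = 0.0537), and the highest tumor library (49.7) was just under the lowest spleen library (50.3). Such a separation was seen for 79.1% of all genes tested there. Reads can be shared here: of the 50-base words in the exons of Arg2, 17.1% also lie in exons of Vti1b, a vesicle transport gene on the opposite strand (chromosome 12, 79156017 to 79172667). Vti1b ranged from 22.8 to 68.0 FPKM and was higher in tumor by 1.35 in Ly6C and 0.91 in Ly6G (log2). Whether counting used the strand is not stated, so part of the Arg2 level is uncertain.

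The make-up of arginase transcripts changed with tissue. Arg1 held 1.05%, 2.30% and 0.936% of the summed Arg1 and Arg2 FPKM in the Ly6C spleen libraries and 70.2%, 67.0% and 75.0% in Ly6C tumor. It held 0.286%, 0.0729% and 0% in Ly6G spleen and 32.6%, 9.57% and 37.8% in Ly6G tumor. Arg1 was the larger arginase transcript in all 3 Ly6C tumor libraries and in 0 of the 3 Ly6G tumor libraries. The mean share rose by 69.3 percentage points in Ly6C and 26.5 in Ly6G (two-sided exact permutation test, p = 0.1 for each, the smallest that 3 against 3 allows). Over both labels together the rise was 47.9 points (p = 0.005, the smallest that the exact test of 400 arrangements within labels can give). A share within a library does not depend on how libraries are scaled to each other.

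Nos2, the inducible nitric oxide synthase of activated myeloid cells, was higher in tumor in both labels and highest in Ly6G tumor (ENSMUSG00000020826, chromosome 11, 78920787 to 78960254, plus strand). Its level in Ly6C was 7.92, 2.78 and 9.15 FPKM in spleen and 18.1, 12.8 and 21.3 in tumor. In Ly6G it was 13.8, 19.8 and 7.36 in spleen and 51.8, 56.8 and 84.3 in tumor. Tumor and spleen libraries did not overlap in either label, as was so for 78.5% of all genes tested in Ly6C and 79.1% in Ly6G. The tumor mean was 2.63 times the spleen mean in Ly6C and 4.71 times in Ly6G, with log2 differences of 1.37 ± 0.40 (adjusted p = 0.00796) and 2.22 ± 0.40 (adjusted p = 0.000303). The difference between these tissue effects was -0.85 (95% interval -2.09 to 0.38, adjusted p = 0.302).

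Between the labels, Nos2 in tumor was lower in Ly6C than in Ly6G by 1.82 ± 0.40 on the log2 scale (adjusted p = 0.0149), and the groups did not overlap. Such a separation was seen for 42.3% of all genes tested in that comparison. The spleen groups overlapped, and the difference of -0.97 (95% interval -1.84 to -0.10) did not pass (adjusted p = 0.0878). The tumor call was lost without Ly6C tumor replicate 2 (-1.63, adjusted p = 0.0603), without Ly6G tumor replicate 3 (-1.61, adjusted p = 0.0621) and without both libraries of highest mitochondrial share (-1.77, adjusted p = 0.113). In the same tumor libraries 16 of 20 pan-leukocyte genes were lower in Ly6C than in Ly6G (median -1.11), with Ptprc, the common leukocyte antigen, at 3.76 ± 1.05 against 11.8 ± 3.62 FPKM. Rescaled to those genes, the Nos2 difference was -0.75 (adjusted p = 0.0492).

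**Figure D2:**
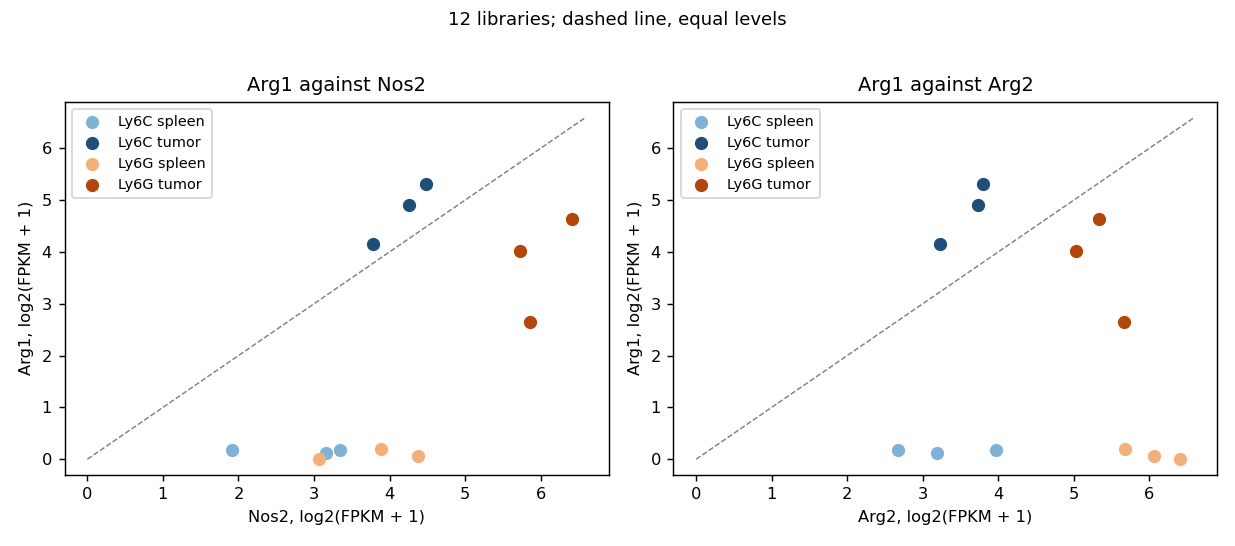
Arg1 against Nos2 (left) and against Arg2 (right) in the 12 libraries, both axes as log2(FPKM + 1), with a dashed line at equal levels. The 3 Ly6C tumor libraries lie above the line in both panels and the other 9 libraries below it.

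The balance of Arg1 and Nos2 within a library, taken as log2(Arg1 + 1) minus log2(Nos2 + 1), separated Ly6C tumor from the other groups. It was 0.64, 0.38 and 0.83 in Ly6C tumor, so Arg1 exceeded Nos2 in each. In Ly6G tumor it was -1.70, -3.21 and -1.78. In spleen, where Arg1 was near 0 and the balance was therefore mostly the Nos2 level, it was -3.04, -1.75 and -3.16 in Ly6C and -3.70, -4.31 and -3.06 in Ly6G. The balance rose in tumor by 3.26 in Ly6C (exact permutation p = 0.1, the smallest possible) and by 1.46 in Ly6G (exact p = 0.2), where the groups overlapped. Over both labels the mean rise was 2.36 (exact p = 0.01), which with a pseudocount of 5 was 0.79 and no longer passed (exact p = 0.08).

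Ass1 and Asl rebuild arginine from citrulline, and neither passed between tissues. Asl (ENSMUSG00000025533, chromosome 5, 130011258 to 130029247, minus strand) was the steadiest of the 7 tested genes, with levels between 4.13 and 6.94 FPKM in the 12 libraries. Its tissue differences were 0.06 in Ly6C (95% interval -0.26 to 0.37) and -0.03 in Ly6G (95% interval -0.34 to 0.29). In tumor its Ly6C libraries (6.59, 5.84 and 6.07) lay above the Ly6G libraries (5.28, 4.13 and 5.76), a separation seen for 42.3% of all genes tested in that comparison, and the difference of 0.25 did not pass (adjusted p = 0.25).

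Ass1 (ENSMUSG00000076441, chromosome 2, 31470207 to 31520672, plus strand) varied most in Ly6C spleen. Its level was 4.31, 8.0 and 1.92 FPKM there and 2.54, 1.496 and 3.0 in Ly6C tumor. In Ly6G it was 1.12, 1.31 and 2.03 in spleen and 1.27, 0.967 and 1.96 in tumor. Libraries of every group overlapped those of another. In spleen Ass1 was higher in Ly6C than in Ly6G by 1.08 ± 0.34 (adjusted p = 0.0335). That call was lost without Ly6C spleen replicate 1 (adjusted p = 0.0768), Ly6C spleen replicate 2 (0.114, difference 0.68), Ly6G spleen replicate 1 (0.0998) or Ly6G spleen replicate 2 (0.084), and under 5 other alternatives. Ass1 reads are also hard to place, since 38.6% of the 50-base words in its exons occur in Gm5424, a processed pseudogene on chromosome 10 (62071123 to 62072362). Gm5424 had levels of 2.21 to 23.4 FPKM (median 6.04). Even its lowest level was above that of Ass1 in most libraries, among them all Ly6G libraries. Gm5424 differed between the labels in spleen in the same direction (1.57 ± 0.39, adjusted p = 0.0109).

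Odc1, the rate-limiting enzyme of polyamine synthesis, had the largest difference of the 8 genes between tissues on the log2(FPKM + 1) scale, while Arg1 had the larger one with a pseudocount of 0.1 (ENSMUSG00000011179, chromosome 12, 17544794 to 17551505, plus strand). Its level in Ly6C was 12.5, 14.3 and 9.91 FPKM in spleen and 355, 602 and 479.8 in tumor. In Ly6G it was 16.9, 11.3 and 19.5 in spleen and 462, 345 and 300.2 in tumor. Every tumor library was far above every spleen library, and the labels overlapped within each tissue. The tissues were apart for 78.5% of all genes tested in Ly6C and 79.1% in Ly6G. The tumor mean was 39.2 times the spleen mean in Ly6C and 23.3 times in Ly6G. The log2 differences were 5.16 ± 0.25 (adjusted p = 4.75e-09) and 4.46 ± 0.25 (adjusted p = 1.77e-08). Among all entries with an Ensembl identifier, Odc1 stood at percentile 93.7 of mean level in Ly6C spleen and 99.8 in Ly6C tumor. It has 16 other genes that share 24.3% of its 50-base words, of which Gm7993, a processed pseudogene, holds the most (11.7%). Gm7993 reached at most 13.7 FPKM and was higher in tumor by 3.41 in Ly6C and 3.20 in Ly6G.

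**Figure D3:**
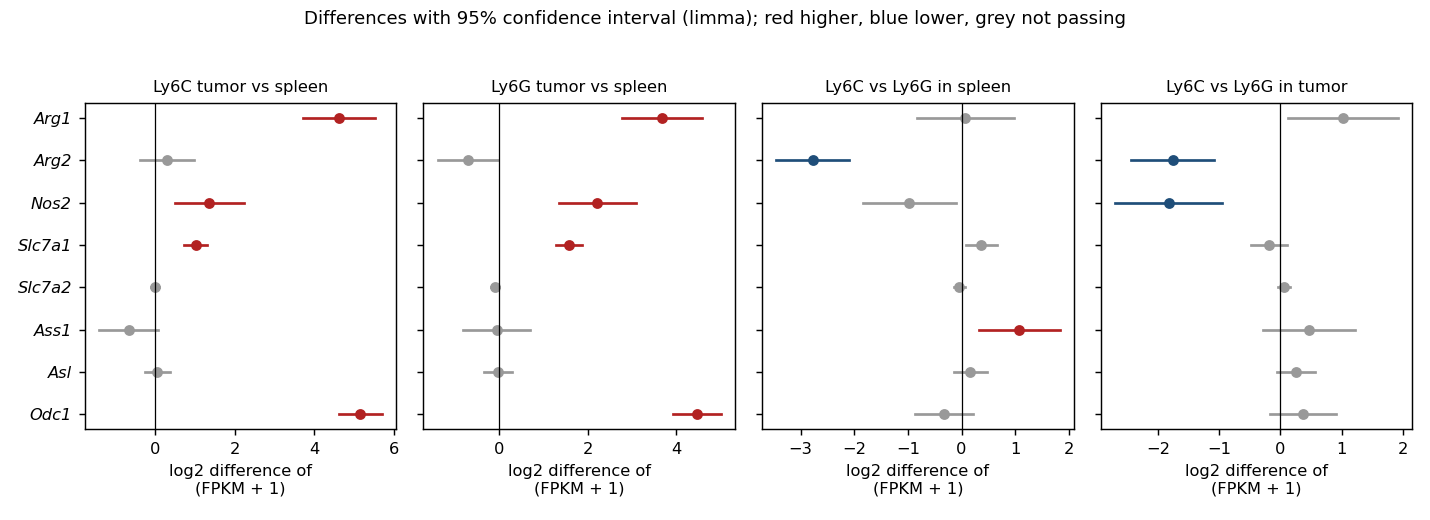
Log2 difference of (FPKM + 1) with 95% confidence interval from limma, for each of the genes in both tissue comparisons and both label comparisons. Red marks higher, blue lower and grey not passing after adjustment over all genes, so a grey interval can exclude 0. Odc1, Arg1, Nos2 and Slc7a1 are red in both tissue comparisons, and Arg2 is blue in both label comparisons.

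Arg2, Ass1 and Nos2 were the members that passed between the labels. In spleen 1 of the 7 tested genes was higher in Ly6C (Ass1) and 1 lower (Arg2), where 22.1% of all genes were higher and 8.59% lower, together 30.6%. In tumor 0 were higher (Arg1 at an unadjusted p under 0.05) and 2 lower (Arg2 and Nos2), against 5.8% and 8.7% of all genes, together 14.5%. At 2 of 7, the count is near the background in spleen, and both tumor calls were lost under some of the alternatives named above. For the interaction of tissue and label, the tissue effect in Ly6C minus that in Ly6G, 0 of 7 passed in limma and 2 had an unadjusted p under 0.05 (Arg2, 1.02 with a 95% interval of 0.06 to 1.98, and Slc7a1), where 21.8% of all genes passed. These comparisons share libraries with the tissue comparisons and are not independent of them. With libraries rescaled to an equal sum, 3 of the genes were higher in Ly6C spleen than in Ly6G spleen and 1 lower. Under that scaling 5380 of the 13610 genes tested were higher and 567 lower.

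Genes that surround the 8 in the pathway moved in both directions. Of 85 genes listed for carriers, urea cycle and creatine, nitric oxide synthesis and response, polyamines, proline and regulators, 67 were tested, and 40 were higher and 17 lower in Ly6C tumor, where 46.2% of all genes were higher and 30.5% lower (median 1.08, beside 0.27 for all genes). In Ly6G tumor 42 were higher and 14 lower, where 51.5% of all genes were higher and 24.7% lower (median 1.18, beside 0.43). The counts of the lists below are to be read against the same shares. Rescaled to the pan-leukocyte genes, under which the median of all genes was 3.31 in Ly6C and 2.38 in Ly6G, all 17 lower genes in Ly6C and 12 of the 14 in Ly6G turned to a positive difference. The other 4 scalings turned 1 gene at most (Nfkb1 in Ly6G).

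Of 15 polyamine genes tested, 9 were higher and 2 lower in Ly6C and 8 and 2 in Ly6G, beside 46.2% and 51.5% of all genes higher and 30.5% and 24.7% lower. The Ly6G count of higher genes is near the background. Spermidine synthase Srm rose most in Ly6C, from 6.17 ± 2.47 to 102 ± 8.94 FPKM (3.90 ± 0.27). In Ly6G the largest rise was that of Mtap, which salvages the by-product of spermidine synthesis, from 1.47 ± 0.326 to 24.1 ± 2.22 FPKM (3.35 ± 0.17). The polyamine exporter of lysosomes, Atp13a2, was lowest in both (-1.58 ± 0.19 and -0.96 ± 0.19). In Ly6G the lower genes numbered 4 after quantile normalization and 5 with median-of-ratios factors, beside 5121 and 5030 of the 13610 genes tested.

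Proline genes, which draw on the same ornithine, were 7 higher and 0 lower of 8 in each label (limma, with 0 lower at an unadjusted p under 0.05), beside 46.2% higher of all genes in Ly6C and 51.5% in Ly6G. The collagen prolyl hydroxylase subunit P4ha2 rose most, to 5.17 ± 0.928 FPKM in Ly6C tumor and 5.70 ± 1.69 in Ly6G tumor from at most 0.0123 in spleen means. With median-of-ratios factors 1 proline gene was lower in Ly6G, beside 5030 of the 13610 genes tested.

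Genes of nitric oxide synthesis and its control were 9 higher and 2 lower of 12 in Ly6C, beside 46.2% and 30.5% of all genes, and 10 higher and 1 lower in Ly6G, beside 51.5% and 24.7%. Gchfr, the feedback regulator of the enzyme that starts synthesis of the cofactor tetrahydrobiopterin, rose from 1.32 ± 0.503 to 94.9 ± 14.1 FPKM in Ly6C (5.38 ± 0.28) and from 1.62 ± 0.935 to 69.4 ± 17.2 in Ly6G (4.79 ± 0.28). Pts, the next enzyme of that synthesis, was lower (-0.64 ± 0.13 and -0.92 ± 0.13). Of the other synthases, named after their values were seen, the neuronal Nos1 rose from at most 0.0215 FPKM to 4.22 ± 0.453 in Ly6C tumor and 4.32 ± 1.31 in Ly6G tumor, and the endothelial Nos3 was not tested, with means of 0.0499 to 1.502 FPKM.

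Few genes of nitric oxide response were expressed. Only 3 of 9 were tested, and 2 were higher and 1 lower in each label, too few to read against the shares of all genes. The cyclic GMP-dependent kinase Prkg2 rose to 7.04 ± 1.26 FPKM in Ly6C tumor and 4.81 ± 0.717 in Ly6G tumor, from a mean of 0.0032 in Ly6C spleen, and it was listed at 0 in Ly6G spleen. The beta globin Hbb-bs, which binds and removes nitric oxide, fell from 200.1 ± 97.9 to 20.8 ± 1.56 in Ly6C and from 1045 ± 434 to 47.0 ± 29.0 in Ly6G. Hbb-bs is a red cell gene, and all 8 erythroid genes were lower in tumor in each label, their sum moving from 309 to 1159 FPKM to 45.3 to 56.1 in Ly6C and from 1459 to 4170 to 58.2 to 226 in Ly6G.

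Other carriers of cationic amino acids were 4 higher and 2 lower of 6 in each label, beside 46.2% higher and 30.5% lower of all genes in Ly6C and 51.5% and 24.7% in Ly6G. The mitochondrial carrier Slc25a29 rose most (1.84 ± 0.14 and 2.07 ± 0.14), and Slc7a7, which exports arginine with a partner protein, fell most (-1.96 ± 0.19 and -1.59 ± 0.19). Urea cycle and creatine genes were 3 higher and 1 lower of 4, against the same shares. The creatine carrier Slc6a8 rose to 9.12 ± 0.838 FPKM in Ly6C tumor and 10.4 ± 2.09 in Ly6G tumor from under 0.1 in spleen. Gatm, which uses arginine to begin creatine synthesis, fell from 13.9 ± 1.51 to 1.09 ± 0.183 in Ly6C and from 9.37 ± 0.705 to 0.948 ± 0.14 in Ly6G. The liver urea cycle genes Cps1 and Otc, picked after their values were seen, were listed at 0 in all 12 libraries.

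**Figure D4:**
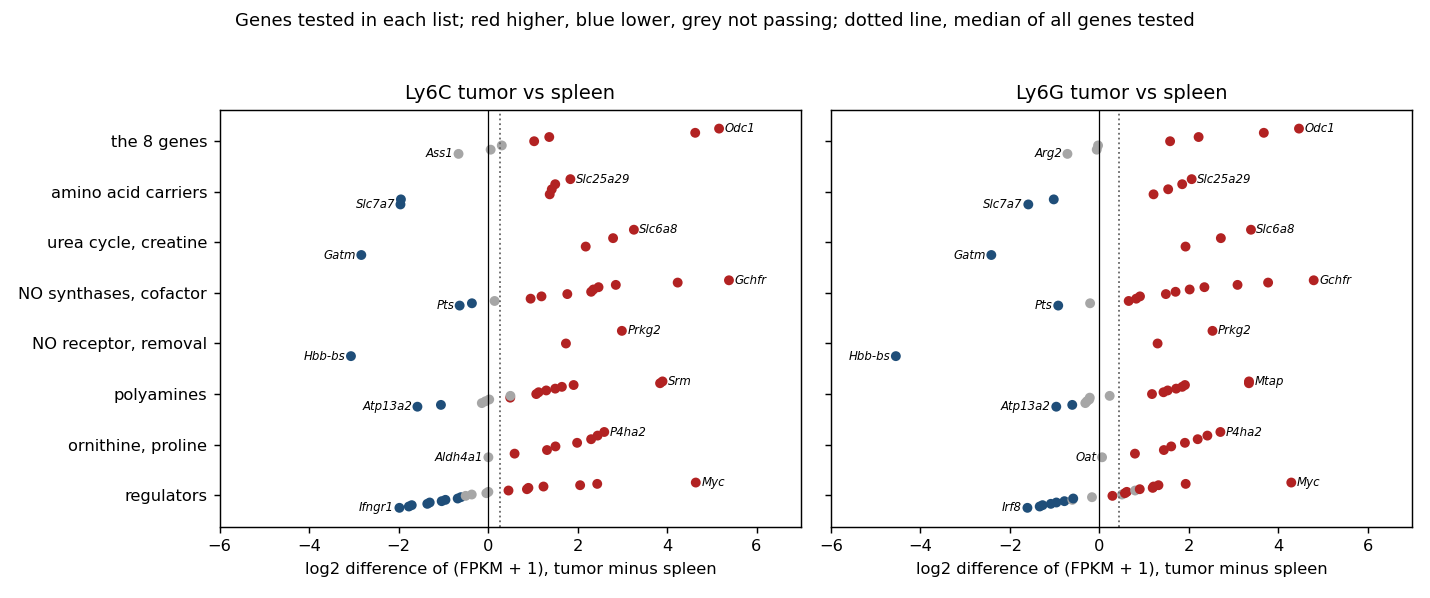
Log2 difference of (FPKM + 1), tumor minus spleen, of every tested gene of the pathway lists and the 8 genes, in Ly6C and Ly6G. Each point is a gene, red higher, blue lower and grey not passing, and the dotted line is the median of all genes tested (0.27 and 0.43). The proline row holds 7 red points and no blue one in each label.

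Regulators of arginase and inducible synthase genes went both ways, with 7 higher and 9 lower of 20 in Ly6C, beside 46.2% and 30.5% of all genes, and 9 higher and 7 lower in Ly6G, beside 51.5% and 24.7%. With median-of-ratios factors the Ly6G balance was 5 higher and 8 lower, beside 5259 and 5030 of the 13610 genes tested. Myc, a transcription factor with Odc1 among its known targets, rose most, from 10.1 ± 3.15 to 273 ± 46.1 FPKM in Ly6C (4.64 ± 0.28) and from 12.1 ± 5.06 to 248 ± 58.8 in Ly6G (4.29 ± 0.28). The interferon-gamma receptor chain Ifngr1 fell most in Ly6C (-1.98 ± 0.21), and the myeloid factor Irf8 fell most in Ly6G (-1.61 ± 0.28).

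Between the labels in spleen, 9 of the 67 pathway genes were higher in Ly6C and 8 lower, beside 22.1% and 8.59% of all genes. Rescaled to an equal sum the split was 23 and 3, beside 5380 and 567 of the 13610 genes tested. With median-of-ratios factors it was 4 and 14, beside 1775 and 2367 of them. Klf4, a factor of monocyte differentiation, was the highest (2.66 ± 0.43, 40.8 ± 23.5 against 5.37 ± 3.02 FPKM) and Hbb-bs the lowest (-2.41 ± 0.51), and both kept their call under all 26 alternatives. Beside Hbb-bs, the 8 erythroid genes were all lower in Ly6C spleen (median -1.71), and their part in its difference was not tested. In tumor 6 were higher and 9 lower, beside 5.8% and 8.7% of all genes, with the arginine methyltransferase Prmt1 highest (0.70 ± 0.17) and Cebpb, a myeloid transcription factor, lowest (-1.15 ± 0.34). Prmt1 lost its call under 7 of 26 alternatives, 5 of them the omission of 1 library (any Ly6C tumor library, Ly6G tumor replicate 2 or replicate 3). Cebpb lost it under 11, 7 of them the omission of 1 library (any tumor library of either label, or Ly6G spleen replicate 1), and its difference was -0.03 when rescaled to pan-leukocyte genes. For the difference of tissue effects, 2 were higher and 5 lower, beside 6.02% and 15.8% of all genes, with Irf1 highest (1.55 ± 0.50) and Klf4 lowest (-2.57 ± 0.61).

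The genes with the most similar pattern over the 12 libraries were found by Pearson's r of log2(FPKM + 1). Because the tissues differ in most genes, high values are common for genes that separate the tissues: 24.4% of genes tested exceeded 0.9 with Arg1, 28.5% with Slc7a1 and 30.1% with Odc1. Genes most similar to Arg1 included Rbp4 (0.996) and Sh3gl3 (0.994). Those closest to Slc7a1 were Pfas (0.996), Uhrf1bp1 (0.995) and Rai1 (0.994), and those closest to Odc1 were Errfi1 (0.998), Tpm1 (0.997) and Nop56 (0.997). Few genes resembled Arg2, Nos2 and Ass1 (0.206%, 0.118% and 0.169% above 0.9), and 0% did for Asl. The closest to Arg2 were Clec4d, a lectin receptor of myeloid cells (0.969), the chemokine receptor Cxcr1 (0.968) and Epha1 (0.967). For Nos2 they were 2010005H15Rik (0.959), the acute-phase gene Saa3 (0.95) and Antxr2 (0.94). For Ass1 they were Psap (0.963), Gm5424, which shares its sequence (0.954), and Lsr (0.947), and for Asl Trappc6a (0.831), Cope (0.821) and Gm7879 (0.805). These values describe 12 libraries from 2 tissues and carry no test.

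The scaling of the libraries set the size of the tissue differences. Over 6 scalings, Odc1 differed by 4.79 to 8.94 in Ly6C and 3.94 to 7.14 in Ly6G, and Arg1 by 4.28 to 6.98 and 3.42 to 4.83. Slc7a1 ranged from 0.71 to 4.08 in Ly6C and Nos2 from 1.02 to 4.88. The upper end was in each case the scaling to pan-leukocyte genes, and these 4 genes passed and were higher under every one of the 6. Arg2, Ass1 and Asl had differences of both signs in Ly6G across these scalings. In Ly6C so did Ass1 (-0.66 as deposited and 2.37 on pan-leukocyte genes) and Asl (-0.27 to 3.48). Over all 26 alternatives, which include the scalings, Arg2 in Ly6C also took both signs (-0.04 to 3.90).

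**Figure D5:**
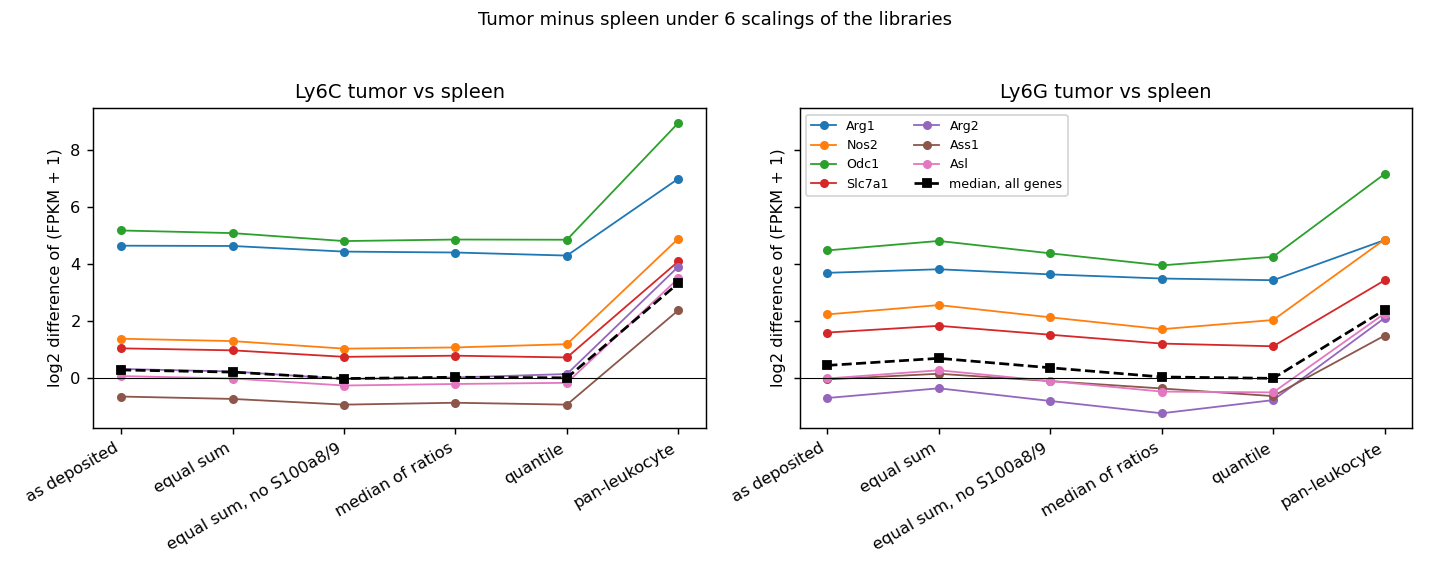
Log2 difference of (FPKM + 1), tumor minus spleen, of the 7 tested genes under 6 scalings of the libraries, for Ly6C and Ly6G. Coloured points joined by lines are genes and black squares the median of all genes tested, which is 0.27 and 0.43 as deposited and 3.31 and 2.38 when libraries are rescaled to pan-leukocyte genes. Odc1, Arg1, Nos2 and Slc7a1 stay above 0 throughout.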

How the data were processed

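Total RNA of 12 mouse samples was made into Illumina libraries and read from both ends, per the labels' protocols. Tools named in the submitters' processing notes are featureCounts 1.5.0-p3 and HISAT2 2.0.5, with the build GRCm38. The authors deposited FPKM per gene and library. The sources used here do not give the tool that computed them, its annotation, strand setting or filters. Of 54674 entries, 570 assembled loci (0.463% to 1.04% of a library's FPKM) were left out. Symbols came from GENCODE M21, which lacked 66 identifiers.

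Low values repeated at a step that would mean 16700000 to 21000000 fragments per library, but only 31.8% to 36.1% lay within 0.05 of a whole step. Counts were therefore not recovered, the depth is unknown, and no counting interval was computed.

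A limma 3.58.1 model (R 4.3.3) of 4 group means on log2(FPKM + 1) was fitted to the 13610 genes that had 1 FPKM or more in 3 or more libraries, with a variance trend (8 residual and 3.4 prior degrees of freedom). Tests were two-sided with Benjamini-Hochberg adjustment at 0.05. The fit was also run on simulated data with few changed genes and no scaling differences, which does not test it under the conditions of these data. Ratios within a library were tested by exact permutation (numpy 2.4.6). Whether replicate numbers pair the libraries is not stated, and they were not used as blocks in the main fit.

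The 8 genes and all lists were chosen with earlier results of these data known. Named genes were the 8, the passing gene of each list with the largest rise and fall between tissues, the highest and lowest passing pathway gene in the other comparisons, the 3 genes most similar to each member (1 of them is not reported here), and Ly6g, Ly6c2, Ptprc, Krt8 and Col3a1. Epcam, Fap, Dcn, Lum, Pdgfra, Pdgfrb, Thy1, Col1a1, Col1a2, Krt18, Nos1, Nos3, Cps1, Otc, Oat and Nfkb1 were added after their values were seen. Col3a1 was 0.0191 and 0.0603 FPKM in Ly6C and Ly6G spleen and 236 and 167 in tumor, and Krt8 was 0.0694, 0.136, 670.2 and 483 in the same order. Of the other marker lists, B cell (7 of 7) and T cell genes (5 of 5 tested) were lower in tumor in each label, monocyte genes were 8 lower of 9 in Ly6C and 1 higher and 6 lower in Ly6G, and of 2 tested endothelial genes 1 was lower in Ly6C, and 1 higher and 1 lower in Ly6G.

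Alternatives were 5 scalings (equal sum, median-of-ratios factors, quantile normalization, 20 pan-leukocyte genes, and equal sum after removal of S100a8 and S100a9), pseudocounts of 0.1 and 5, no filter or one at 5 FPKM, fits of 2 groups, a replicate block, no variance trend, array weights, omission of both libraries of highest mitochondrial share, and omission of each library.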

Additional observations from a re-analysis of the deposited data

Results flagged for a closer look

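The tissue effects of 2 regulator genes differed between the labels by the limma test of the difference itself, being the lowest and highest passing pathway genes there. Klf4 was 33.8, 67.1 and 21.6 FPKM in Ly6C spleen and 12.5, 8.18 and 9.87 in Ly6C tumor, against 3.61, 3.64 and 8.86 in Ly6G spleen and 13.6, 5.23 and 11.2 in Ly6G tumor. Its tissue effect in Ly6C minus that in Ly6G was -2.57 (log2, adjusted p = 0.0128), and the call was lost under 2 of 25 alternatives, the scaling to pan-leukocyte genes (-1.07, adjusted p = 0.154) and the omission of both libraries of highest mitochondrial share (-2.44, adjusted p = 0.0685).

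Irf1, an interferon-responsive transcription factor, was 12.4, 10.3 and 8.67 FPKM in Ly6C spleen and 31.9, 70.8 and 43.6 in Ly6C tumor, against 29.1, 26.2 and 33.4 in Ly6G spleen and 74.8, 39.7 and 25.2 in Ly6G tumor. Its difference of effects was 1.55 (adjusted p = 0.0452). The call was lost under 17 of 25 alternatives, at 1.12 to 2.52 over all of them and with an adjusted p of up to 0.134. The omission of 1 library ended it for 10 of the 12, all but Ly6C tumor replicate 1 and Ly6G tumor replicate 1.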

How the results depend on the processing

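For the 12 results of these genes that passed, 298 of 311 values under alternatives kept direction and call. The others were Ass1 between the labels in spleen (9), Nos2 (3) and Arg2 (1) between the labels in tumor. Of 898 values of all results for the 7 genes, 5 reversed, each when libraries were rescaled to pan-leukocyte genes: between tissues Ass1 in Ly6C became 2.37, and Arg2, Ass1 and Asl in Ly6G became 2.09, 1.48 and 2.25, while Slc7a1 between the labels in tumor became 0.86. That scaling also raised the passing genes to 7 in each tissue comparison and 7 between the labels in tumor, to 3 for the interaction, and left 1 in spleen. It changed the count over all genes to 12898 between tissues in Ly6C and 12720 in Ly6G. Between the labels that count was 207 in spleen and 9980 in tumor, and it was 2970 for the interaction. The higher share of all genes passing was 60.2% in Ly6C and 67.6% in Ly6G as deposited, 57.2% and 76.1% rescaled to an equal sum, 50% and 49.7% after quantile normalization, 51.1% in both with median-of-ratios factors, 49% and 64.9% without S100a8 and S100a9, and 96.5% and 96.1% on pan-leukocyte genes.

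Between the labels in spleen, 4 of the genes passed when rescaled to an equal sum and with array weights. After quantile normalization, without the filter, with the filter at 5 FPKM and in fits of 2 groups 1 passed. The replicate block left 1 as well, in place of 2. Over all 13610 genes, 5947 passed with the equal sum, 5475 with array weights, 3640 after quantile normalization and 3941 with the block. Without the filter 3992 of 30674 passed, and with the filter at 5 FPKM 3021 of 8354. Same-numbered libraries of different groups deviated with r of -0.36 to 0.279 (5 of 18 above 0.1, median 0.0203). For different numbers r was -0.393 to 0.427 (7 of 36 above 0.1, median -0.0235). These ranges overlap, so they cannot tell whether the numbers pair the libraries. With the block Ass1 in spleen had an adjusted p of 0.0596, and it changed no other call of the 7 genes that had passed. For the interaction, 1 gene passed when rescaled to an equal sum, without S100a8 and S100a9, and with array weights. Over all genes tested these settings passed 4792, 4150 and 4385. In tumor 0 passed without both libraries of highest mitochondrial share.

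Leaving out each library gave 1 to 4 passing genes in spleen, 1 to 2 in tumor and 0 to 1 for the interaction. Of all genes tested it passed 3317 to 4150 in spleen, 746 to 2618 in tumor and 2095 to 3124 for the interaction. Over all genes, the interaction had 4792 passing when rescaled to an equal sum and 1417 without both libraries of highest mitochondrial share, spleen 2586 in fits of 2 groups, and tumor 3433 with array weights and 260 without both those libraries. The filter at 5 FPKM tested fewer genes and passed 6694 in Ly6C and 6648 in Ly6G. The rise of the Arg1 to Nos2 balance was 0.79 with a pseudocount of 5, and its exact p with the replicate block was 0.0312. Without counts, the precision of values near 0, such as Arg1 in spleen, is not known.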
